A study of Homo sapiens with 12 samples.

Results

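The kinetochore and centromere genes described here encode the proteins that mark the centromere of each chromosome and build on it the plate that holds spindle microtubules. The list has 36 genes, grouped by the complex to which each product belongs, and 35 of them had a probe set annotated to that gene alone. CENPP shared its only probe set with another gene and has no value. All 35 passed a filter on low signal (log2 signal of 5 or more on 2 or more arrays), as did 9130 genes in all. Where a gene had several probe sets, the one with the highest mean was used. Those of CENPA, CENPH, CENPL and SKA1 are of a kind (x_at) that may bind transcripts of other genes too.

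The values come from HCT116, a human colorectal carcinoma cell line, arrested where G1 passes into S phase by a double block with 2 mM thymidine, a treatment that every group here shares. The cells were then released with DMSO, the vehicle, and profiled in an early window (0, 2 and 4 h), a middle window (6, 7 and 8 h) and a late window (9 and 10 h), or with 0.1 mg/ml nocodazole, which depolymerizes microtubules, and profiled at 7, 8, 9 and 10 h. The 12 conditions had 1 Affymetrix U133 Plus 2.0 array each and no replicate, so each test rests on how neighbouring hours spread around a window mean, a curve or a treatment difference, and other sources of spread are not measured. Each value is a log2 signal on which a difference of 1 is a ratio of 2. It can be compared between arrays for a gene, but not between genes.

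The median over 15030 kept probe sets was 8.28 to 9.13 on the 12 arrays, with the 9 and 10 h nocodazole arrays lowest at 8.39 and 8.28. The 18S rRNA probe sets had a mean of 8.32 on the 4 h DMSO array and of 3.55 to 4.05 on the other arrays. The epithelial genes EPCAM, CDH1, KRT8, KRT18 and KRT19 passed the filter while the intestinal markers CDX2 and VIL1 did not. Of the markers of other cells, 1 of 6 for fibroblasts (COL1A1, 7.75 to 8.60), 0 of 4 for leukocytes and 0 of 3 for endothelium passed. An array reads RNA from the whole culture, so a change in the share of cells in a phase and a change in RNA per cell cannot be told apart.

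Centromeres are marked by nucleosomes that hold CENP-A in place of histone H3, and new CENP-A is loaded after cells divide. A constitutive centromere network binds these nucleosomes through the cell cycle. As cells enter mitosis, the Knl1, Mis12 and Ndc80 complexes assemble on it and bind microtubules, and an outer fibrous corona forms, with motors and checkpoint proteins.

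The genes did not share a time of highest signal. With DMSO, 13 of 35 genes were highest at 0 to 4 h, 17 at 6 to 8 h and 5 at 9 or 10 h, beside 30.8%, 28.8% and 40.4% of all 9130 genes. By hour, 6 genes were highest at 0 h, 5 at 2 h, 2 at 4 h, 8 at 6 h, 9 at 7 h and 5 at 10 h, and no gene was highest at 8 or 9 h. The range from lowest to highest DMSO array was 1 or more for 14 of 35 genes, beside 33.4% of all genes. None of the 5 genes highest at 10 h (CENPB, CENPN, CENPM, PMF1 and KNTC1) had such a range. The 10 h DMSO array had the highest median of all. That of 7 h came next at 9.08, beside 8.59 to 8.66 on the 0 to 4 h arrays. These classes are a description. In 9 of 35 genes the highest value was within 0.1 of the highest value of another window. After quantile normalization 22 genes were highest at 0 to 4 h and none at 9 to 10 h. All 5 genes of the latest class moved to the earliest, as did CENPI, CENPW, NSL1 and OIP5 of the middle class. A fitted curve over the 8 DMSO arrays changed with time for 14 of 35 genes, 40% beside 21.8% of all genes tested (limma, adjusted p under 0.05). These were CENPA, CENPC, CENPE, CENPF, CENPI, CENPK, CENPQ, CENPU, DSN1, HJURP, NDC80, NUF2, SPC25 and ZWINT. SPC25 passed in 6 of 15 alternative settings, CENPI in 10, CENPC in 12 and the others in 14 or 15. Without the 0 h array 9 of the 14 passed, beside 9.44% of all genes.

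**Figure D1:**
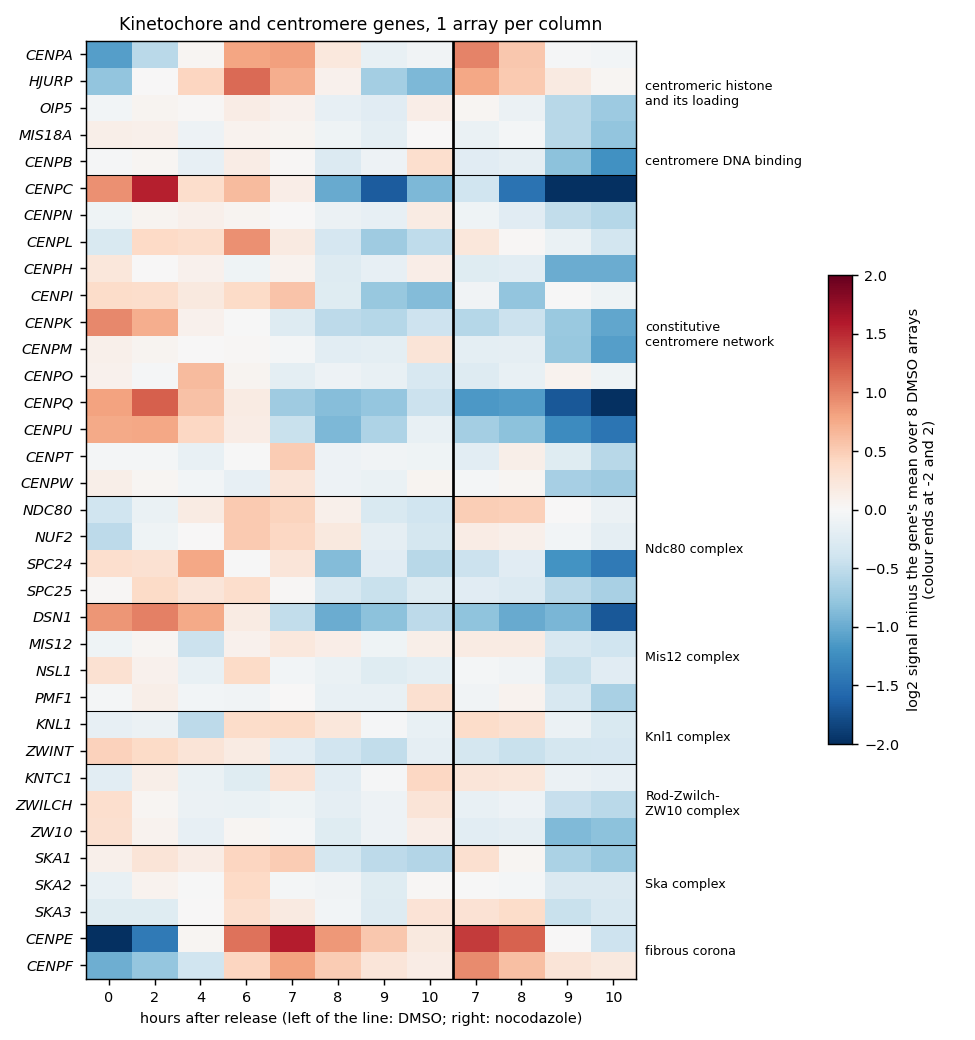
Log2 signal of 35 kinetochore and centromere genes on the 12 arrays, as the difference from each gene's mean over the 8 DMSO arrays, with hours after release along the bottom and genes ordered by complex. CENPE and CENPF are lowest at 0 h, while CENPQ, CENPU and DSN1 are highest at 0 to 4 h, and many genes have their lowest values on the 9 and 10 h nocodazole arrays.

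Promoters are shown for 4 genes highest at 6 to 8 h and 3 of the 5 highest at 2 h, all among the 14 genes with a changing curve. The genes shown were chosen by no fixed rule, after their values were seen. The windows run from 250 bases before to 50 after the annotated start (RefSeq, GRCh38.p14), 5′ to 3′ on the strand of the gene. Capitals mark matches, on either strand, to 2 kinds of element. The CHR element, searched as TTTGAA or else as TTTAAA, is known to hold late cell cycle genes silent early in the cycle. The E2F site, known from genes of the G1/S transition, was searched as TTCCCGC, with TTGGCGC as a variant form and TTCGCGC as a further form. The genes shown among those highest at 6 or 7 h are CENPE (chr4:103198294-103198593, minus strand), CENPF (chr1:214602945-214603244, plus strand), CENPA (chr2:26785806-26786105, plus strand) and HJURP (chr2:233854486-233854785, minus strand).
CENPE: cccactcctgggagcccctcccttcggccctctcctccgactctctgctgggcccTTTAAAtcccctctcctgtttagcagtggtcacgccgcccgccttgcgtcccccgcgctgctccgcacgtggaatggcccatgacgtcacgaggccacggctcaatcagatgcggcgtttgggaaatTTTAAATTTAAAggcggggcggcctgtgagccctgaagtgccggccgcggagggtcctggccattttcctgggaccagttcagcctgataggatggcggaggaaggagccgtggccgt
CENPF: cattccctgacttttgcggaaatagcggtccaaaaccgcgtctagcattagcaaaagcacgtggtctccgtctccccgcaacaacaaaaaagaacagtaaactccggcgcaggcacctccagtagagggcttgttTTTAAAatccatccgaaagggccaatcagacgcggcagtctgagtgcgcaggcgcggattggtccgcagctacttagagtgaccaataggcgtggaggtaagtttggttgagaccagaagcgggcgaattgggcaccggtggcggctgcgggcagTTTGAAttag
CENPA: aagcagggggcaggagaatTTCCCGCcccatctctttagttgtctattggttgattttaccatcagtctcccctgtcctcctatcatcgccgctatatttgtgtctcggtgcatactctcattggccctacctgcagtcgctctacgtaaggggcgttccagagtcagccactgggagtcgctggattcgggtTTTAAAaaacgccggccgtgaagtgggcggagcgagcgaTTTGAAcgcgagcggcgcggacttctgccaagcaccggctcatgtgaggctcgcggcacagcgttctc
HJURP: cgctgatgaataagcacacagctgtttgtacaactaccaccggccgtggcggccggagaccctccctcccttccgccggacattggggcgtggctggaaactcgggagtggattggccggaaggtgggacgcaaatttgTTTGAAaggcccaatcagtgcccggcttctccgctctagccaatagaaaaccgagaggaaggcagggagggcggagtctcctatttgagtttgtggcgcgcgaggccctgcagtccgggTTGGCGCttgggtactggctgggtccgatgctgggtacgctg
The genes shown among those highest at 2 h are CENPQ (chr6:49463120-49463419, plus strand), CENPU (chr4:184734047-184734346, minus strand) and DSN1 (chr20:36773714-36774013, minus strand).
CENPQ: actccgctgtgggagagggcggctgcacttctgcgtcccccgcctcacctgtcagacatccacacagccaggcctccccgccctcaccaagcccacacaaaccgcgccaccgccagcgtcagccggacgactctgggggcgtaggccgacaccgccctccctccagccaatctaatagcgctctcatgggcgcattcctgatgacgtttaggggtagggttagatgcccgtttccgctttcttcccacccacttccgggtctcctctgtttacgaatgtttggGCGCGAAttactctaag
CENPU: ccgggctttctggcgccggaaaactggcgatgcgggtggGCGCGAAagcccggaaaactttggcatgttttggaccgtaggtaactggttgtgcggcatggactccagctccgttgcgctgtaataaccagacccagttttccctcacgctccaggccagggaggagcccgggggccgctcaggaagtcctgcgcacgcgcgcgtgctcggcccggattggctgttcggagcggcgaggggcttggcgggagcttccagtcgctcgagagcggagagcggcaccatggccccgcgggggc
DSN1: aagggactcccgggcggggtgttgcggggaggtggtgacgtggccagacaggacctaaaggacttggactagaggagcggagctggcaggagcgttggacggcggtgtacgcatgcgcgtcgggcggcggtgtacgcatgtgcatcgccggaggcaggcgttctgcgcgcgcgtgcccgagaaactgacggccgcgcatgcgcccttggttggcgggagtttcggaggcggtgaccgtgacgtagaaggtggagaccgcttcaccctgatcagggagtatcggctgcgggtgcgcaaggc

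The CENPE window held 3 CHR matches, 2 of them side by side, and no E2F match. Those of CENPF and CENPA held 2 CHR matches each and that of HJURP held 1, and CENPA and HJURP also held an E2F match each. No CHR match lay in the windows of CENPQ, CENPU or DSN1, and those of CENPQ and CENPU held 1 E2F match each. CENPC and SPC25, also highest at 2 h, held 1 and 2 CHR matches. Over the list, each class of peak hour held CHR matches. Of 30 genes with a window, 14 (46.7%) held a CHR match, beside 24% of all 35116 promoter windows. They were 5 of 11 genes highest at 0 to 4 h, 8 of 15 highest at 6 to 8 h and 1 of 3 highest at 9 to 10 h, with CENPP, which has a window but no signal, in no class. E2F matches lay in windows of 13 of 30 genes (43.3%, beside 11% of all windows), and the CCAAT box (CCAAT) in windows of 19 of 30 (63.3%, beside 34.6%). CENPP, MIS12 and ZWINT have several windows, and a gene counts here if any of its windows matched. The shares of all are per window, so the units differ. The E2F form TTGGCGC can share letters with CCAAT on the opposite strand, and TTTAAA reads the same on both strands. CCAAT is not in capitals. A match is a description of the letters and not of a bound site. CENPM, CENPL, MIS18A, KNTC1, KNL1 and CENPH have no window here.

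Between the early and the middle DMSO window, the fibrous corona genes CENPE and CENPF and the scaffold gene KNL1 rose, while CENPQ of the centromere network and DSN1 of the Mis12 complex fell. These are 5 of 35 genes, 14.3% beside 6.05% of all genes tested. The 3 higher genes are 8.57% beside 5.41%, and the 2 lower genes 5.71% beside 0.635%. The median difference was -0.02 for the 35 genes and 0.06 for all genes. At an unadjusted p under 0.05, 14 of 35 genes passed, beside 24.9% of all. The arrays of the 2 windows did not overlap for 6 genes that were higher (CENPA, CENPE, CENPF, KNL1, MIS12 and NUF2), beside 20.8% of all genes, and for 6 that were lower (CENPK, CENPQ, CENPU, DSN1, SPC24 and ZWINT), beside 9.98%. The split depended on scaling. With each array centred on its median, which shifts all genes to a median of -0.22, 2 genes were higher and 7 lower, beside 14.4% of all genes called. After quantile normalization (median -0.10) 2 were higher and 5 lower, beside 9.67%.

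The fibrous corona genes had the clearest rise. CENPE, a kinesin that carries chromosomes toward the spindle equator, had log2 signals of 5.16, 6.61 and 8.07 in the early window, 9.11, 9.60 and 8.89 in the middle window, and 8.57 and 8.22 in the late window. The signal climbed over each step to 7 h, and no early array reached the later ones. The window difference was 2.59 (SE 0.61, adjusted p = 0.0433), with the largest range over the DMSO arrays of the 35 genes, 4.44. CENPF, a large coiled-coil protein of the corona, had 9.86, 10.06 and 10.44 in the early window, 11.26, 11.63 and 11.34 in the middle window, and 11.08 and 10.98 in the late window. It rose by 1.29 (SE 0.17, adjusted p = 0.0184) and passed in 13 of 16 alternative settings, while CENPE passed in 8 of 16. A further CENPF probe set above the filter was also highest at 7 h and differed by 2.25.

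KNL1, the scaffold that receives the checkpoint kinase BUB1, had 10.20, 10.25 and 9.85 in the early window, 10.74, 10.76 and 10.59 in the middle window, and 10.35 and 10.22 in the late window. The early arrays were all lower than those at 6 to 8 h. The difference of 0.60 (SE 0.14, adjusted p = 0.0433) passed in 2 of 16 alternative settings, and it was 0.43 after quantile normalization and 0.32 with centred arrays. Further KNL1 probe sets above the filter differed by 0.77, highest at 6 h, and by 0.13, highest at 2 h. The mean of the KNL1 probe sets above the filter differed by 0.50 and did not pass. Its partner ZWINT, which links KNL1 to the Rod-Zwilch-ZW10 complex, took the opposite course, with 13.99, 13.91 and 13.78 at 0 to 4 h, 13.69, 13.31 and 13.14 at 6 to 8 h, and 13.04 and 13.35 at 9 and 10 h. The difference of -0.51 (SE 0.15, adjusted p = 0.0759) did not pass, although its curve over the hours did.

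The gene of the centromeric histone itself was lowest at 0 h. CENPA had 7.08, 7.64 and 8.22 in the early window, 8.96, 9.00 and 8.38 in the middle window, and 8.02 and 8.11 in the late window. The windows did not overlap, and the difference of 1.13 (SE 0.29, adjusted p = 0.0562) fell short of the threshold. HJURP, the chaperone that deposits CENP-A, had 9.91, 10.71 and 11.13 in the early window, 11.84, 11.43 and 10.79 in the middle window, and 10.02 and 9.80 in the late window. Its signal was highest at 6 h, and the 9 and 10 h values lay near that of 0 h. The window difference was 0.77 (SE 0.34, adjusted p = 0.2), or 0.43 without the 0 h array. OIP5 and MIS18A, subunits of the Mis18 complex that prepares centromeres for loading, stayed within 0.37 and 0.31 over the DMSO arrays. The other MIS18A probe sets did not share its course, with window differences of 0.71 and -0.94 beside -0.02. CENPB, which binds a motif in centromeric satellite DNA, ranged over 0.60.

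In the constitutive centromere network, 6 of 12 genes were highest at 0 to 4 h, beside 30.8% of all genes. The count depended on scaling, since CENPI, CENPM, CENPN and CENPW joined this class after quantile normalization and with centred arrays. CENPQ had 9.17, 9.56 and 8.95 in the early window, 8.53, 7.65 and 7.51 in the middle window, and 7.58 and 7.93 in the late window. It fell by 1.33 (SE 0.29, adjusted p = 0.0370). CENPU, its partner in the CENP-O/P/Q/U subcomplex and a docking site for the kinase PLK1, had 11.87, 11.89 and 11.53 in the early window, 11.26, 10.67 and 10.22 in the middle window, and 10.50 and 10.97 in the late window. The windows did not overlap, and the difference of -1.04 (SE 0.26, adjusted p = 0.0502) was just short of the threshold. CENPU had 2 further probe sets above the filter, with differences of -1.52 and -1.26. CENPO, of the same subcomplex, was highest at 4 h with 9.40 and ranged over 0.96, but another of its probe sets was highest at 10 h.

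The subcomplex of CENP-H, CENP-I, CENP-K and CENP-M, which joins CENP-C to the rest of the network, was mixed. CENPK had 11.38, 11.16 and 10.52 in the early window, 10.42, 10.17 and 9.90 in the middle window, and 9.85 and 10.01 in the late window. It was highest at 0 h and lower at each hour to 9 h, with a window difference of -0.85 (SE 0.23, adjusted p = 0.0623). CENPI was level from 0 to 7 h, between 7.07 and 7.45, and had 6.64, 6.11 and 6.01 at 8, 9 and 10 h. A further CENPI probe set, near the filter, took another course. It was highest at 6 h with 5.95 and had 4.73, 4.83 and 4.88 at 8, 9 and 10 h. With the mean of the CENPI probe sets above the filter, the curve did not pass (limma, adjusted p = 0.119). CENPH and CENPM ranged over 0.47 and 0.48.

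CENPC, the scaffold that ties CENP-A nucleosomes to the Mis12 complex, had 8.75, 9.40 and 8.20 in the early window, 8.47, 7.97 and 6.83 in the middle window, and 6.17 and 6.94 in the late window. It had the widest range after CENPE, 3.22, but the windows overlapped and the difference of -1.02 (SE 0.45, adjusted p = 0.2) did not pass. Without the 8 h array it was -0.56, and with 0 and 2 h set against 7 and 8 h it was -1.67 and passed. CENPL, which with CENP-N reads the CENP-A nucleosome, was highest at 6 h with 9.41 and lowest at 9 h with 7.78. CENPN was flat within 0.33. CENPT and CENPW, histone-fold proteins that give Ndc80 a further route to the centromere, ranged over 0.65 and 0.41, with CENPT close to the filter at 5.14 to 5.79.

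The Ndc80 complex is a rod whose NDC80 and NUF2 end binds microtubules and whose SPC24 and SPC25 end binds the Mis12 complex. NDC80 had 10.96, 11.23 and 11.52 in the early window, 11.89, 11.80 and 11.47 in the middle window, and 11.06 and 10.97 in the late window. NUF2 had 10.52, 10.95 and 11.04, then 11.56, 11.45 and 11.23, then 10.86 and 10.68 in the same windows. Both were highest at 6 h and lowest at 0 h, with window differences of 0.49 (SE 0.17, adjusted p = 0.121) and 0.57 (SE 0.16, adjusted p = 0.0744). With centred arrays these were 0.21 and 0.30. SPC24 was highest at 4 h, on the array with high 18S signal, and lowest at 8 h, with 9.47 and 7.83 and a difference of -0.68 (SE 0.28, adjusted p = 0.182), or -0.36 without the 8 h array. With centred arrays it was -0.96 and passed. SPC25 was highest at 2 h with 11.64, within 0.03 of its value at 6 h.

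DSN1, the Mis12 subunit through which Aurora B controls binding to CENP-C, had 9.67, 9.80 and 9.55 in the early window, 8.95, 8.30 and 7.79 in the middle window, and 7.97 and 8.27 in the late window. It fell by 1.32 (SE 0.27, adjusted p = 0.0327). The other subunits MIS12, NSL1 and PMF1 ranged over 0.64, 0.63 and 0.47. In the Rod-Zwilch-ZW10 complex, which brings dynein and checkpoint proteins to kinetochores, KNTC1, ZWILCH and ZW10 ranged over 0.66, 0.52 and 0.58. ZW10 lay at the filter, with 4.70 to 5.27. A further ZWILCH probe set was lowest at 4 h with 9.69 and highest at 10 h with 10.78. Its window difference was 0.38, beside -0.22 for the one used. Of the Ska complex, which steadies the grip on microtubules, SKA1, SKA2 and SKA3 were highest at 7, 6 and 6 h with ranges of 1.08, 0.63 and 0.59. Apart from DSN1, none of these genes passed over the hours or between the windows.

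**Figure D2:**
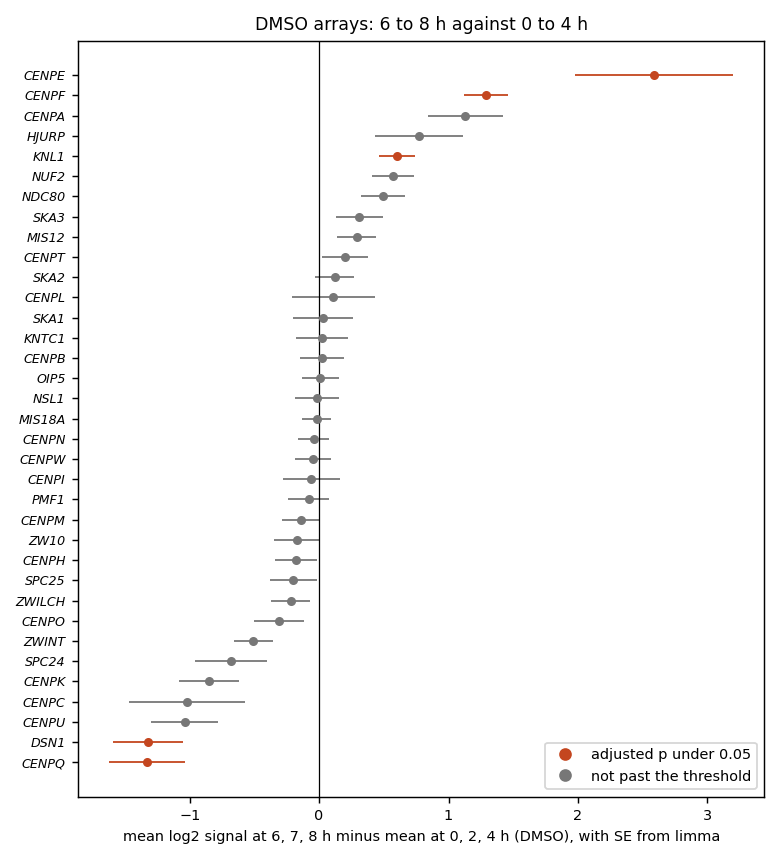
Difference between the mean log2 signal at 6, 7 and 8 h and that at 0, 2 and 4 h with DMSO for 35 genes, with 1 SE from limma as bars. The 5 genes in red passed, CENPE (2.59), CENPF (1.29) and KNL1 (0.60) higher and DSN1 (-1.32) and CENPQ (-1.33) lower.

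The calls between these windows rested on few arrays. Leaving out 1 hour in turn gave 0 to 7 genes. None passed without the 2, 7 or 8 h array, beside 0% of all genes. CENPF alone passed without the 0, 9 or 10 h array, beside 1.47% to 2.48% of all genes. The count of 7 came without the 6 h array, beside 13.9% of all genes. Without the 4 h array, where the 18S signal was high, 6 passed, 4 of them among the 5, beside 6% of all genes.

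Other genes that act at centromeres and kinetochores, such as checkpoint kinases, the chromosomal passenger complex and motors, were counted from a separate list. Of 30 with a value, 12 rose from 0 to 4 h to 6 to 8 h (limma, adjusted p under 0.05), 40% beside 5.41% of all genes. In the other direction 0 fell, beside 0.635% of all genes. At an unadjusted p under 0.05, 26 passed, 86.7% beside 24.9% of all. The median difference was 0.79, beside 0.06 for all genes. Among the 12, the largest differences were those of PLK1 (2.30), NDE1 (2.10), CKAP5 (1.47), MAD1L1 (1.35), KIF18A (1.13) and SPDL1 (1.13). None of these named genes passed without the 2, 7 or 8 h array, beside 0% of all genes. PLK1, NDE1, KIF18A and MAD1L1 also did not pass without the level filter. Over the hours 19 of 30 changed, 63.3% beside 21.8% of all genes. Those counts stand beside 5 and 14 of the 35 genes described here, and the difference between the lists was not tested.

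The study's cell cycle signature, which sorts genes into phases from other cells, holds 10 of the 36 genes. CENPE and CENPF are listed there for M phase, CENPA and HJURP for G2 and CENPI for M/G1, and all 5 were highest here at 6 or 7 h. CENPQ and CENPU are listed for S phase and were highest at 2 h. KNTC1, MIS12 and SKA1 are also listed for S phase, and were highest here at 10, 7 and 7 h. Some of these hours depended on scaling. CENPI at 7 h was 0.21 above its highest value in the other windows. After quantile normalization CENPI and KNTC1 were highest at 0 to 4 h, and with centred arrays CENPI, KNTC1 and MIS12 were.

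Between the middle and the late DMSO window no gene passed, of the 35 or of all 9130 (0%, limma), while 8 of 35 had an unadjusted p under 0.05, beside 5.15% of all. The arrays did not overlap for 11 genes that were lower at 9 and 10 h, 31.4% beside 7.37% of all genes, and for 0 that were higher, beside 9.75%. The 11 were CENPA, CENPE, CENPF, CENPI, CENPL, HJURP, KNL1, NDC80, NSL1, NUF2 and SKA1. All came from the class highest at 6 to 8 h, which was formed on the same values. For CENPI, KNL1 and NSL1 a further probe set above the filter did overlap. Those of CENPF and CENPL, and another of KNL1, were lower without overlap. The differences were -1.44 for HJURP (SE 0.38, adjusted p = 0.815), -1.20 for CENPC, whose windows overlapped (SE 0.50, adjusted p = 0.912), -1.06 for CENPI (SE 0.24, adjusted p = 0.783), -0.87 for CENPL (SE 0.36, adjusted p = 0.912) and -0.81 for CENPE (SE 0.68, adjusted p = 0.915). For SKA1, CENPA, NDC80 and NUF2 they were -0.74, -0.72, -0.71 and -0.64. The median was -0.18 for the 35 genes and 0.04 for all.

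**Figure D3:**
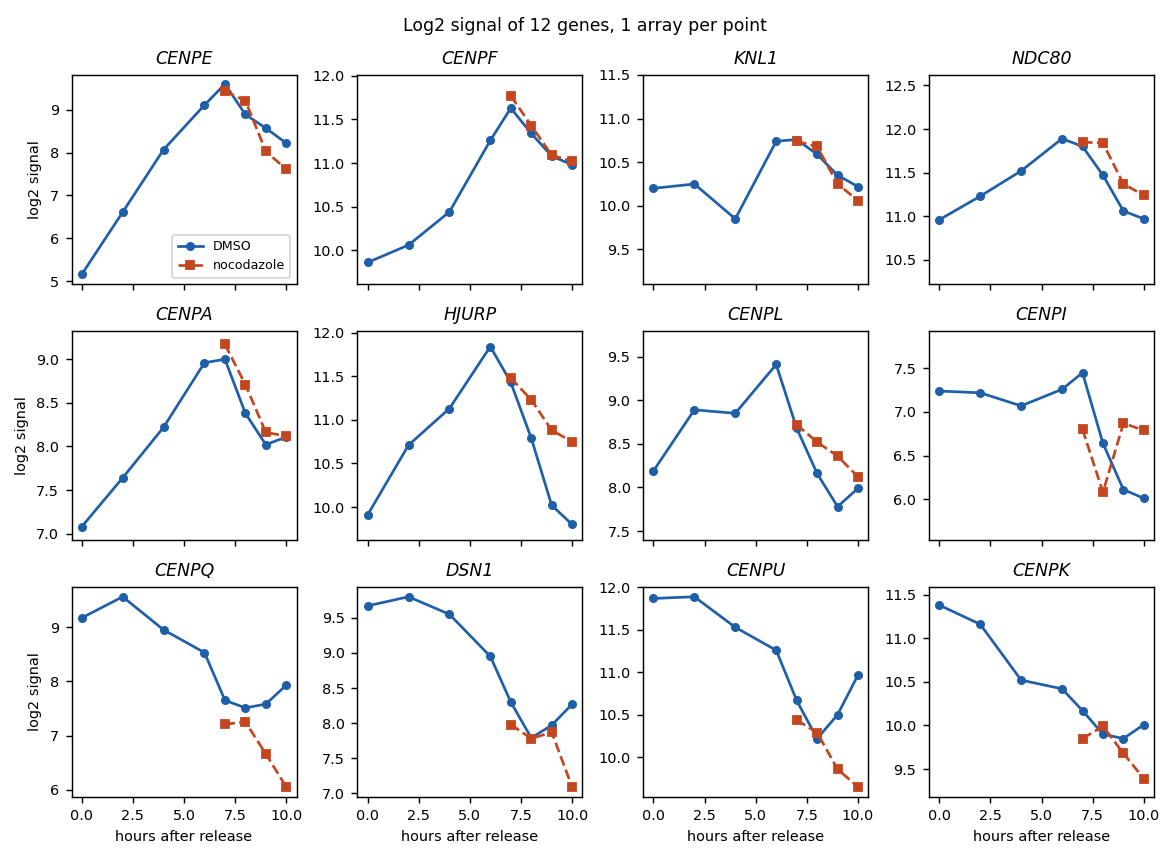
Log2 signal of 12 genes by hour after release, with DMSO as blue circles and nocodazole as red squares, 1 array per point and each panel on its own scale. CENPE and CENPF climb to 7 h, CENPQ, DSN1, CENPU and CENPK descend from 0 or 2 h, and HJURP at 10 h is 9.80 with DMSO and 10.75 with nocodazole.

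Nocodazole keeps the spindle checkpoint active and holds cells in mitosis. Over 7 to 10 h no gene passed between nocodazole and DMSO with the hour as a block, of the 35 or of all 9130 (0%, limma), and 3 of 35 had an unadjusted p under 0.05, beside 10.4% of all. These were HJURP, which was higher with nocodazole, and CENPC and CENPQ, which were lower. The median difference was -0.25 for the 35 genes and -0.22 for all genes, and after quantile normalization 0.06 and 0. The 4 DMSO arrays of this comparison also entered those above.

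HJURP had 11.48, 11.23, 10.88 and 10.75 with nocodazole at 7, 8, 9 and 10 h, beside 11.43, 10.79, 10.02 and 9.80 with DMSO. It was higher at all 4 hours, and the gap widened from 0.05 at 7 h to 0.95 at 10 h. The mean difference was 0.57 (SE 0.19, adjusted p = 0.386), and 0.81 after quantile normalization. CENPC had 7.45, 6.36, 4.83 and 4.73 with nocodazole beside 7.97, 6.83, 6.17 and 6.94 with DMSO. It was lower at all 4 hours, with a mean difference of -1.14 (SE 0.32, adjusted p = 0.386), and its last nocodazole values lay below the filter of 5. CENPQ had 7.21, 7.25, 6.66 and 6.05 with nocodazole beside 7.65, 7.51, 7.58 and 7.93, a difference of -0.88 (SE 0.30, adjusted p = 0.386).

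Nocodazole was higher than DMSO at all 4 hours for 5 of 35 genes (CENPA, HJURP, CENPL, NDC80 and CENPF), 14.3% beside 3.14% of all genes, and lower for 4 (CENPC, CENPN, CENPQ and DSN1), 11.4% beside 16%. With centred arrays these counts were 6 beside 10.4% and 5 beside 8.34%, and after quantile normalization 9 beside 11.1% and 8 beside 13.5%. For NDC80 the differences were 0.05, 0.37, 0.31 and 0.27 at 7, 8, 9 and 10 h. For CENPA they were 0.16, 0.33, 0.14 and 0.02. CENPF differed by 0.14, 0.10, 0.02 and 0.05, while its DMSO signal went from 11.63 at 7 h to 10.98 at 10 h. A further CENPF probe set above the filter was lower with nocodazole at all 4 hours. It had 9.16, 9.00, 8.12 and 6.27 beside 9.46, 9.20, 8.54 and 8.47. A further CENPL probe set was higher at 7 and 9 h but lower at 8 and 10 h (7.63 and 6.95 beside 7.73 and 7.72). Both further CENPN probe sets above the filter were lower at 7, 9 and 10 h but higher at 8 h. They had 9.44 and 10.17 there, beside 9.18 and 9.93 with DMSO. DSN1 differed by -0.01 at 8 h, and by 0.38 at 9 h with centred arrays. CENPE had 9.43, 9.21, 8.03 and 7.61 with nocodazole beside 9.60, 8.89, 8.57 and 8.22, with a mean difference of -0.25 (SE 0.22, adjusted p = 0.489) that was 0.06 after quantile normalization.

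At 9 and 10 h the nocodazole arrays had the lowest medians, whose part in the differences was not tested. Taken alone, these hours gave 11 of 35 genes (31.4% of the list, beside 36.8% of all genes), with HJURP (0.90, SE 0.30) and CENPI (0.77, SE 0.24) higher and CENPB, CENPC, CENPH, CENPM, CENPQ, CENPU, DSN1, SPC24 and ZW10 lower. The 7 and 8 h arrays alone gave 0 genes of the list, beside 0.274% of all genes (limma). The direction of the split turned with scaling, since after quantile normalization 9 genes were higher and 6 lower at 9 and 10 h (32.9% of all genes called). HJURP, CENPI, CENPL, CENPO, CENPA, NDC80, NUF2, CENPF and KNL1 were then higher, and CENPC, ZW10, CENPQ, CENPB, CENPU and CENPN lower. As deposited, a further probe set above the filter was lower with nocodazole at both hours for CENPO, CENPF and CENPI. At 9 and 10 h that of CENPO had 5.40 and 5.41 beside 6.29 and 7.36, and that of CENPF 8.12 and 6.27 beside 8.54 and 8.47. Those of CENPL and KNL1 were mixed. HJURP and CENPI were higher, and CENPC, CENPQ, CENPB and CENPU lower, with deposited, centred and quantile normalized values. These fits hold 2 arrays per treatment.

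**Figure D4:**
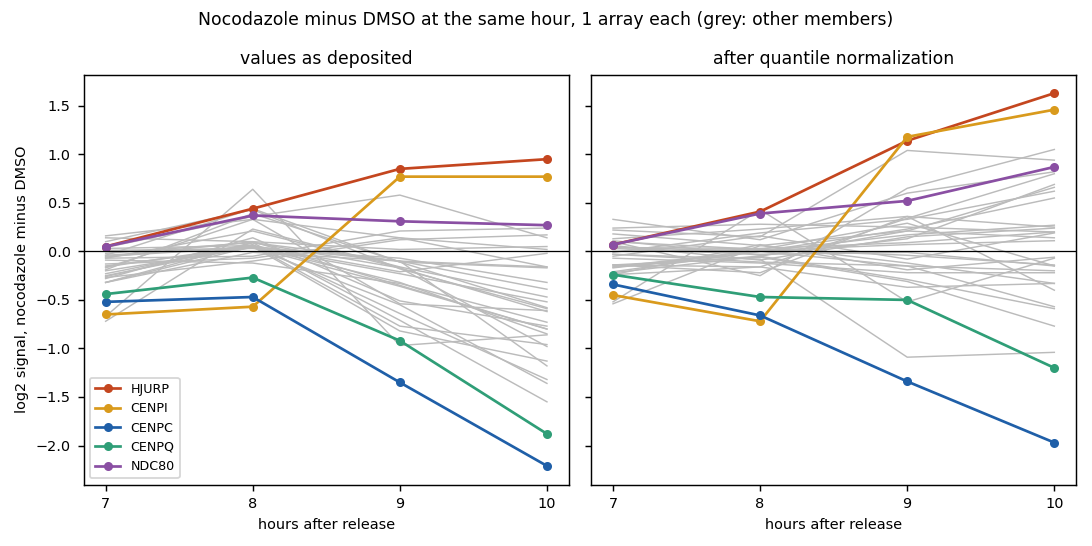
Nocodazole minus DMSO log2 signal at 7, 8, 9 and 10 h for 35 genes, with values as deposited on the left and after quantile normalization on the right, and 1 array per treatment at each hour. HJURP stays above 0 and CENPC and CENPQ below 0 at all 4 hours in both panels, and most of the other genes lie below 0 at 10 h in the left panel.

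Whether the nocodazole difference at 9 and 10 h departed from that at 7 and 8 h was tested as an interaction, which passed for 2 of 35 genes, 5.71% beside 12.3% of all genes. The gene that changed downward stands beside 10.3% of all genes, and the gene that changed upward beside 1.99%. CENPC, with 1 probe set, changed by -1.28 (SE 0.39, adjusted p = 0.0494). With centred arrays its change was -0.61 and after quantile normalization -1.15, and it passed in neither. Without the 10 h arrays its change was -0.85. CENPI changed by 1.38 (SE 0.35, adjusted p = 0.0270), from 6.80 and 6.08 with nocodazole beside 7.45 and 6.64 with DMSO at 7 and 8 h to 6.87 and 6.79 beside 6.11 and 6.01 at 9 and 10 h. Without the 9 h arrays its change was 1.38, and without the 10 h arrays 1.37. A further CENPI probe set, nearer the filter, did not show this, with 3.97 and 3.95 beside 4.83 and 4.88 at 9 and 10 h, and the mean of its probe sets above the filter changed by 0.10. The corresponding values were 0.66 for HJURP (SE 0.26, adjusted p = 0.0952) and -1.05 for CENPB (SE 0.34, adjusted p = 0.0572). The split turned with scaling here too. With centred arrays 11 genes passed, all higher, beside 20.2% of all genes (1344 of 1844 higher). After quantile normalization HJURP, NUF2 and CENPI passed, all higher, beside 7.78% of all genes (370 of 711 higher). Leaving out the 9 h or the 10 h arrays leaves 1 array per treatment at the later hours, so no call or count is given. Of the 30 other centromere and kinetochore genes, 1 passed, beside 12.3% of all genes. It was MAD2L1BP, a checkpoint silencing factor, which changed by -1.70 (SE 0.35, adjusted p = 0.0139). Between nocodazole and DMSO, and between 9 to 10 h and 6 to 8 h, 0 passed, beside 0% of all genes. In each of these, 3 had an unadjusted p under 0.05, beside 10.4% and 5.15% of all genes.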

How the data were processed

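The authors deposited log2 signals per probe set, made with GC-RMA. No version is given in the sources used here, and base 2 was inferred from how far the values reach. All 12 columns were used and 0 belong to other samples. The array's annotation named 1 symbol for 41097 of 54675 probe sets, several for 1801 and none for 11777. No gene of the list needed an older symbol. A gene was represented by its probe set with the highest mean among those kept by the filter.

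R 4.3.3 and limma 3.58.1 were used, with a trend of the variance on intensity, on all 9130 genes and with Benjamini-Hochberg adjustment at 0.05. The course was a natural cubic spline with 3 degrees of freedom. Windows were compared by their means over the 8 DMSO arrays. Nocodazole was compared with DMSO with the hour as a block, since both treatments were profiled at each hour. The fits were tested on simulated data. The genes and lists were chosen with earlier results of these data known. All members were reported, and of the other centromere and kinetochore genes the 6 largest called differences per direction.

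Alternatives were each hour left out, 7 and 8 h or 9 and 10 h alone, no hour block, windows of 0 and 2 h and of 7 and 8 h, 1 spread for the 12 arrays, 2 degrees of freedom in the spline, no variance trend, probe sets averaged by gene, arrays centred or quantile normalized, and a filter at 7 or none. Those that combined hours with a scaling were chosen after seeing the data. Plots used matplotlib 3.10.9, and tables pandas 2.3.3 and numpy 2.4.6 under Python 3.11.15. The number of arrays limits the precision.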

Additional observations from a re-analysis of the deposited data

Results flagged for a closer look

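In 2 genes the difference between nocodazole and DMSO at 9 and 10 h departed from that at 7 and 8 h by a test of the change itself. It changed by -1.28 for CENPC and by 1.38 for CENPI. CENPC did not pass with the filter at 7, without the intensity trend, with centred arrays or after quantile normalization. With 1 hour left out, 1 array per treatment remains at the earlier or at the later hours, so no call is given for that. CENPI did not pass with the mean of its probe sets (0.10).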

How the results depend on the processing

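Of 392 values recomputed with 1 hour left out, 315 kept their direction and side of the threshold and 0 reversed. Of 444 under other alternatives, 369 did and 7 reversed. The reversals were in the nocodazole difference of CENPE, 0.06 (quantile), 0.08 (centred), 0.08 (7 and 8 h alone), 0.05 (7 and 8 h, quantile), 0.06 (9 and 10 h, quantile) and 0.09 (9 and 10 h, centred) beside -0.25, and of CENPF, -0.35 with the mean of probe sets beside 0.08. Shares in brackets below are those of all genes tested. Genes changed over the course, 14 as reported (21.8%), numbered 23 after quantile normalization (40.1%) and 27 with centred arrays (44.7%). With 1 hour left out they numbered 9 to 15 (9.44% to 24.3%). Genes called from 0 to 4 h to 6 to 8 h were 5 as reported (6.05%). They numbered 1 without the filter (0.329%), 9 with the filter at 7 (9.7%) and 9 with centred arrays (14.4%). Without the intensity trend there were 3 (4.67%), with narrower windows 9 (13.5%) and with a shared spread 10 (12.4%). With 1 hour left out there were 0 to 7 (0% to 13.9%). The nocodazole comparison gave 11 at 9 and 10 h alone (36.8%), 15 there after quantile normalization (32.9%) and 17 with centring (52.7%). With 1 hour left out it gave 0 to 1 (0% to 4.39%), the 1 being CENPC without 8 h. For the change of that difference, 2 as reported (12.3%), there were 5 without the filter (50.9%) and 4 with the filter at 7 (22.6%). With centring there were 11 (20.2%) and without the trend 1 (8.59%). Leaving out 1 hour leaves 1 array per treatment at the earlier or at the later hours, so no count is given for it. Genes highest at 0 to 4 h numbered 22 (quantile) and 23 (centred) beside 13, and at 9 to 10 h 0 and 0 beside 5. No replicate block beyond the hour was possible, and without the hour block 0 of the 35 genes and 8 of all genes passed. The cause of these changes was not tested. With 1 array per condition, spread between cultures is not measured.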
